A study of Mus musculus with 14 samples.

Results

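Gpr17 and 9 other genes of the oligodendrocyte lineage (Pdgfra, Cspg4, Olig1, Olig2, Sox10, Bcas1, Enpp6, Nkx2-2 and Ugt8a) were followed through the hippocampus of 14 mice. They are 10 of the 24421 genes of the count table, and all 10 were among the 14897 genes with enough counts to be tested. The genes were chosen by name around Gpr17, and Gpr17 itself was chosen by its lower level in these same LPAR2-/- mice. Its difference between the genotypes is therefore given as a description without a test, and the question asked of the others was whether the stages of the lineage before and after it changed along with it.

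The study sequenced RNA, after removal of ribosomal RNA, from 7 naive male mice labelled LPAR2-/- and 7 naive male wild-type (WT) mice of strain 129.C57Bl6, with 1 library per mouse. LPAR2 is a receptor for the signaling lipid lysophosphatidic acid. Per the study's methods the LPAR2-/- mice lack part of exon 2 of Lpar2. The methods describe separate colonies for homozygous knockouts and for controls (mixed C57BL/6 and 129/SvJ), so genotype and colony cannot be told apart. The labels give 10 to 12 weeks as the age and hippocampus as the tissue, whereas the series text speaks of older mice and the paper's results of the dentate gyrus, so the age and the exact region are not known.

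Oligodendrocytes, the myelin-forming cells of the brain, arise from oligodendrocyte precursor cells (OPCs) that persist in the adult hippocampus. OPCs carry the growth factor receptor PDGFRα and the proteoglycan NG2, the products of Pdgfra and Cspg4. When they commit to differentiate they lose these and pass through a short stage that expresses Gpr17, a G protein-coupled receptor that holds cells before terminal differentiation. Newly formed oligodendrocytes then express Bcas1 and Enpp6, and myelinating cells make the myelin lipid galactosylceramide with the enzyme encoded by Ugt8a. Olig1, Olig2 and Sox10 encode transcription factors of the whole lineage, and Nkx2-2 one that acts around commitment.

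The libraries held 15434620 to 23258949 counts on genes. Lpar2 itself was higher in all 7 libraries labelled LPAR2-/- (144 to 234 counts) than in all WT libraries (27 to 66 counts), with a log2 fold change of 2.01 (SE 0.157, adjusted p = 8.22e-07, edgeR). These counts cover the whole gene and cannot check a deletion within exon 2, so genotypes are those of the labels. Markers of hippocampal neurons were present in every mouse: Prox1, of dentate granule cells, at 33.5 to 55.1 CPM (counts scaled to a common library size), Wfs1, of CA1, at 37.4 to 65.5 CPM, and Grik4, of CA3, at 50.9 to 111 CPM (these 3 were picked after the data were seen). In whole tissue, fewer cells of a type and less RNA per cell cannot be told apart. The mature oligodendrocyte genes set 1 library apart. Summed over 24 of them, LPAR2-/- mouse 3 reached 5216 CPM, against a median of 1979 CPM in its genotype and at most 2842 CPM in WT mice, and members are given with and without it.

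Stretches of 250 bases before the annotated start are shown for 4 genes, 1 for each step of the lineage: Pdgfra of OPCs, Olig2 of the whole lineage, Enpp6 of newly formed cells and Ugt8a of myelin synthesis. They are RefSeq sequences of build GRCm38.p6, written 5′ to 3′ in the direction of the gene: chr5:75152001-75152250 (plus strand) for Pdgfra, chr16:91225300-91225549 (plus strand) for Olig2, chr8:46986637-46986886 (plus strand) for Enpp6 and chr3:125938653-125938902 (minus strand) for Ugt8a. Capitals mark the letters of 3 searched motifs, looked for on both strands: ACAAAG or ACAATG for SOX factors, CAGCTG or CAGATG for E-box factors such as OLIG2, and ATCAAAG for the TCF factors of Wnt signaling.
Pdgfra promoter: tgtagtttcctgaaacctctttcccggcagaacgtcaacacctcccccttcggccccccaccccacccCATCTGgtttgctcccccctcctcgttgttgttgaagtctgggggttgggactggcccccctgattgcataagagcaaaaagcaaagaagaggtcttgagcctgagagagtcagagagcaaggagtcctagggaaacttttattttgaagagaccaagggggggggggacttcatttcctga
Olig2 promoter: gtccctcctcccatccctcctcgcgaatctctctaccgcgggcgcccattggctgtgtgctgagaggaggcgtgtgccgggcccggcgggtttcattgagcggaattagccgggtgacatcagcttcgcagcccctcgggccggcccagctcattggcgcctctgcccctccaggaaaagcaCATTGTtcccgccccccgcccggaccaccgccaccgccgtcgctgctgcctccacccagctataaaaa
Enpp6 promoter: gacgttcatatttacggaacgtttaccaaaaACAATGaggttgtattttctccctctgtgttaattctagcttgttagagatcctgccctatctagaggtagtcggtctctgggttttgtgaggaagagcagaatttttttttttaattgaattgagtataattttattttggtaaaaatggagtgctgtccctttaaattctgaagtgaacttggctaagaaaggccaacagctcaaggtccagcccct
Ugt8a promoter: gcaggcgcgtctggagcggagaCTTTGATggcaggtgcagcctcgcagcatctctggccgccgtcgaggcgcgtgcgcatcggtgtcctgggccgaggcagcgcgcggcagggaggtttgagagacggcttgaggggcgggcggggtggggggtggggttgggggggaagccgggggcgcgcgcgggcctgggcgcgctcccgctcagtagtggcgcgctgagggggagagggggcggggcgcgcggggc

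The Olig2 and Enpp6 stretches each hold 1 SOX match (at -68 and -219 from the start), the Pdgfra stretch 1 E-box match (at -182) and the Ugt8a stretch 1 TCF match (at -228). Positions count from the starts in the promoter annotation, which for Pdgfra, Enpp6 and Ugt8a differ from the gene limits given below. Of the other members searched, Nkx2-2 holds 1 E-box match (at -220) and Cspg4 none. Among 27025 stretches of the same length, 25.5% hold a SOX match, 25.3% an E-box match and 3.23% a TCF match. A match describes the letters only. None of the 3 motifs was found in both Enpp6 and Ugt8a, the members with the largest ratio of LPAR2-/- mouse 3 to the other LPAR2-/- mice.

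Levels were first ordered per length, as counts scaled to library size and to the kilobases of exon counted (RPKM), since counts cannot be compared between genes. In WT mice the median level fell from Olig1 (26.8 RPKM) and Bcas1 (20.1) to Gpr17 (13.02), Olig2 (7.86), Sox10 (7.29), Pdgfra (5.77), Ugt8a (5.45), Cspg4 (3.38), Nkx2-2 (0.937) and Enpp6 (0.497). The ranges of WT mice overlapped for Olig1 and Bcas1, for Olig2, Sox10, Pdgfra and Ugt8a as neighbors, and narrowly for Nkx2-2 and Enpp6. Gpr17, at 8.27 to 14.2 RPKM, lay apart from both its neighbors in that order. In LPAR2-/- mice Gpr17 kept its place with a median of 7.84 RPKM, but its range of 6.63 to 9.22 RPKM overlapped that of Pdgfra, now next in order with a median of 6.58 RPKM. Enpp6 and Nkx2-2 were the scarcest, with 15 to 97 and 17 to 57 counts per mouse, so that their values carry the most counting error.

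Gpr17 (mm10, chr18:31942999-31949636, minus strand, 2 exon blocks) was lower in LPAR2-/- mice. In WT mice it lay between 42.96 and 73.65 CPM with a median of 67.6 CPM. In LPAR2-/- mice it lay between 34.45 and 47.86 CPM with a median of 40.7 CPM. Of the LPAR2-/- mice 5 were below all WT mice, and 6 WT mice were above all LPAR2-/- mice. The overlap came from WT mouse 1, the lowest WT mouse at 42.96 CPM, which fell among the LPAR2-/- mice. The mean was 40.9 ± 4.42 CPM in LPAR2-/- and 64.7 ± 11.3 CPM in WT mice (SD, n = 7 each), a ratio of 0.633 and a log2 fold change of -0.66 (SE 0.109). It was -0.74 without WT mouse 1 and -0.70 without LPAR2-/- mouse 3. The exons of Gpr17 share 188 bases with Lims2, which lies on the opposite strand, and reads were counted for 1 strand. Lims2 stood at 11.3 CPM in LPAR2-/- and 13.04 CPM in WT mice on average (log2 fold change -0.20, SE 0.0997, adjusted p = 0.242, edgeR).

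**Figure D1:**
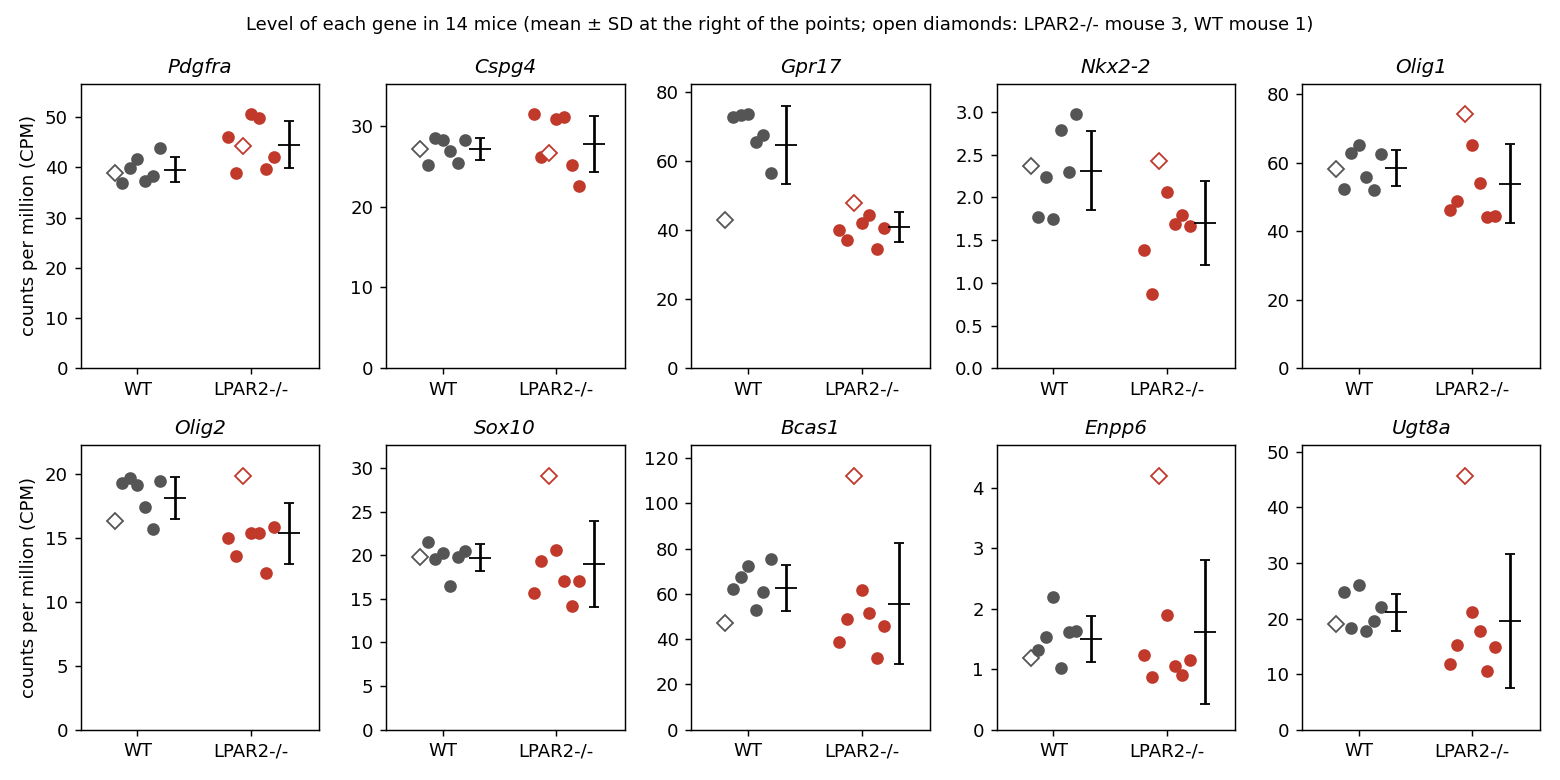
Level of each of the 10 genes in CPM (vertical axes, from 0) in 7 WT (gray) and 7 LPAR2-/- mice (red), 1 point per mouse, with the mean ± SD beside the points. Open diamonds mark WT mouse 1, the lowest WT mouse for Gpr17 at 42.96 CPM, and LPAR2-/- mouse 3, the highest of all mice for Olig1, Olig2, Sox10, Bcas1, Enpp6 and Ugt8a.

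Of the other 9 members none passed the threshold of an adjusted p under 0.05 (edgeR's quasi-likelihood test, adjusted over all genes tested). Their adjusted p ranged from 0.106 to 0.884, and 3 of the 9 (Pdgfra, Olig2 and Nkx2-2) had an unadjusted p under 0.05, a share to be set against 22.4% of all genes tested. DESeq2, which called 8.6% of all genes, called none of these 9 either. Together with Gpr17, which the choice of genes used, 1 of 10 members was called. Over all genes 6.77% were called, 3.46% lower and 3.32% higher in LPAR2-/- mice, and nothing is read from the members' count. With 1 mouse left out at a time, the share called over all genes ran from 3.79% (without WT mouse 2) to 9.26% (without WT mouse 1), and counts of calls in such fits are to be set against these shares. The ranges of the genotypes overlapped for all 10 members, while they were separate for 1.77% of all genes tested. The estimates of the 9 were lower in 6 and higher in 3, with a median log2 fold change of -0.09 against 0.00 over all genes.

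**Figure D2:**
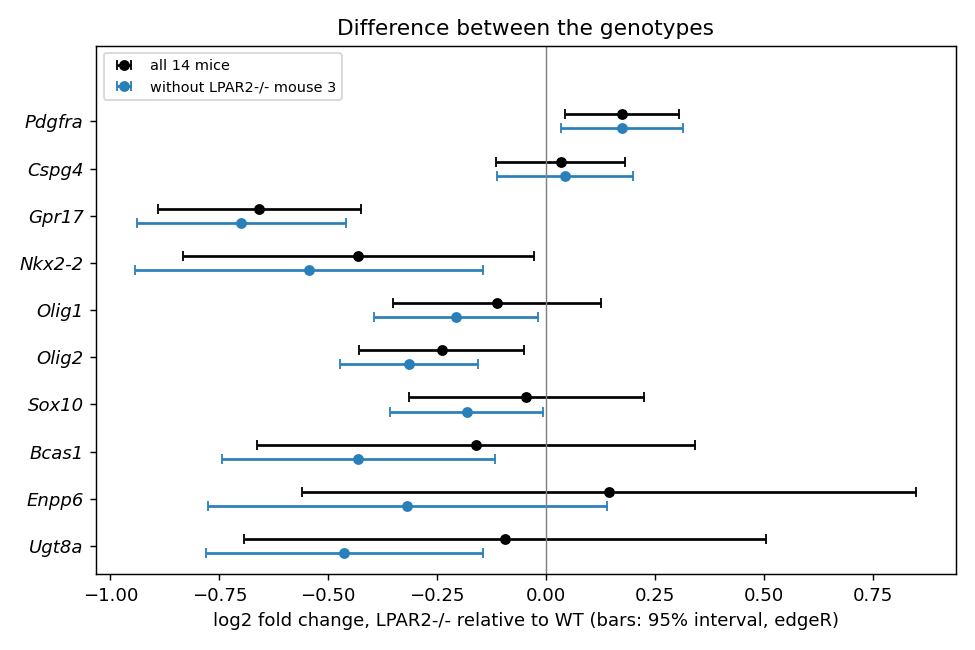
Log2 fold change of each gene in LPAR2-/- relative to WT mice (horizontal axis) with its 95% interval from edgeR, for all 14 mice (black) and without LPAR2-/- mouse 3 (blue). Gpr17 lies at -0.66 and -0.70, Pdgfra at 0.17 and 0.18, and the estimates of Bcas1, Enpp6 and Ugt8a move to the left without mouse 3. The interval drawn for Gpr17 is not a test, because the gene was chosen by its lower level in these mice.

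The OPC receptor gene Pdgfra (mm10, chr5:75152291-75198204) did not fall with Gpr17. It lay between 36.92 and 43.8 CPM (median 38.9) in WT mice and between 38.98 and 50.62 CPM (median 44.4) in LPAR2-/- mice. Of the LPAR2-/- mice 4 were above all WT mice, and 4 WT mice were below all LPAR2-/- mice. The log2 fold change was 0.17 (SE 0.0621, 95% interval 0.04 to 0.30, adjusted p = 0.106, edgeR), which did not pass. Cspg4 (chr9:56865104-56899870), the NG2 gene, had nearly the same mean in both genotypes, 27.7 ± 3.46 CPM in LPAR2-/- and 27.1 ± 1.39 CPM in WT mice (SD, n = 7 each). Its log2 fold change was 0.03 (SE 0.0699, 95% interval -0.11 to 0.18, adjusted p = 0.823, edgeR). Without LPAR2-/- mouse 3, the log2 fold change was 0.18 for Pdgfra (adjusted p = 0.115) and 0.04 for Cspg4 (adjusted p = 0.763). For Cspg4 the LPAR2-/- mice lay on both sides of the WT mice, with 2 below and 3 above all of them.

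Pdgfra is also expressed by fibroblasts of the meninges, and Cspg4 by pericytes, so the markers of both cell types are given beside them. The 14 fibroblast and meningeal genes summed to 150.2 to 656.8 CPM in LPAR2-/- and 115.5 to 468 CPM in WT mice. Of them 13 had a higher estimate in LPAR2-/- mice (median log2 fold change 1.05), and 1 passed the threshold, the matrix proteoglycan gene Lum (0.54, adjusted p = 0.0132, edgeR). Without WT mouse 4, the WT mouse with the highest sum, 7 passed (median 1.45), in a fit that called 4.47% of all genes. Without LPAR2-/- mouse 3 there were 2 calls (7.43% of all genes), and with mouse number as a replicate block 0 (3.93% of all genes). The 12 pericyte and smooth muscle genes summed to 197.8 to 406.7 CPM in LPAR2-/- and 148.2 to 346.4 CPM in WT mice, with 8 estimates higher and 4 lower (median 0.44). The receptor gene Notch3 alone passed (0.40, adjusted p = 0.0339, edgeR). Without WT mouse 4 there were 2 calls, and none without LPAR2-/- mouse 1, 4, 5 or 7, or without WT mouse 2, 5, 6 or 7, or with the replicate block. With the fibroblast level as a covariate the log2 fold change of Pdgfra was 0.09 (adjusted p = 0.523, edgeR), and with the pericyte level 0.10 (adjusted p = 0.416). The fold change of Gpr17 was -0.68 in each of these fits.

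Per mouse, the amount of Gpr17 relative to Pdgfra separated the genotypes completely. The log2 ratio of their CPM was 0.14 to 0.98 (median 0.82) in WT mice and -0.27 to 0.11 (median -0.17) in LPAR2-/- mice, so that WT mouse 1 was above every LPAR2-/- mouse on this scale. Because Gpr17 was chosen by its level in these mice, the ratio is a description and has no test. How often Gpr17 relative to any other gene tested would separate the genotypes was not computed. Nothing is therefore read from the separation against Pdgfra. Relative to each of the other 8 members the ranges of the genotypes overlapped. The mean log2 ratio of Gpr17 was lower in LPAR2-/- mice against each of the 9, with a difference of -0.81 for Pdgfra, -0.67 for Cspg4 and -0.16 for Nkx2-2.

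Among the factors of the whole lineage, Olig2 had the lowest adjusted p, but it did not pass with all mice in the comparison without covariates. Olig2 (chr16:91225550-91228677), a basic helix-loop-helix factor needed to form the lineage, lay between 15.69 and 19.71 CPM (median 19.2) in WT mice and between 12.24 and 19.88 CPM (median 15.4) in LPAR2-/- mice. Of the LPAR2-/- mice 5 were below all WT mice, and mouse 3, at 19.88 CPM, was above all of them. The log2 fold change was -0.24 (SE 0.0896, 95% interval -0.43 to -0.05, adjusted p = 0.123, edgeR). Without mouse 3 it was -0.31 (SE 0.0749, adjusted p = 0.0201), past the threshold. Over the 23 alternatives its adjusted p ranged from 0.0201 to 0.375.

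Olig1 (chr16:91269769-91271939), the related gene that starts 41092 bases after the end of Olig2, lay between 52.1 and 65.1 CPM in WT mice (median 58.1) and between 44.07 and 74.15 CPM in LPAR2-/- mice (median 48.9). In LPAR2-/- mice 4 values were below all WT mice and 2 above. Its log2 fold change was -0.11 (SE 0.112, adjusted p = 0.599, edgeR) and -0.21 without mouse 3 (adjusted p = 0.163). Sox10 (chr15:79154913-79164490), the factor that drives myelin genes, lay between 16.52 and 21.58 CPM in WT and between 14.21 and 29.15 CPM in LPAR2-/- mice. Its log2 fold change was -0.05 (SE 0.127, adjusted p = 0.874, edgeR), and -0.18 without mouse 3 (adjusted p = 0.184).

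Nkx2-2 (chr2:147177546-147186402), the homeobox factor of committed cells, had the next largest estimate after Gpr17 but did not pass. It lay between 1.75 and 2.98 CPM (median 2.29) in WT mice and between 0.871 and 2.43 CPM (median 1.68) in LPAR2-/- mice. Of the LPAR2-/- mice 4 were below all WT mice, and 2 WT mice were above all LPAR2-/- mice. The log2 fold change was -0.43 with a wide 95% interval of -0.83 to -0.03 (SE 0.191, adjusted p = 0.191, edgeR). Without LPAR2-/- mouse 3 it was -0.54 (adjusted p = 0.0863). The gene shares 278 exonic bases with its antisense partner Nkx2-2os.

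The genes of later stages were dominated by LPAR2-/- mouse 3. Bcas1 (chr2:170346991-170427845), a marker of newly formed and early myelinating oligodendrocytes, lay between 46.98 and 75.59 CPM (median 62.0) in WT mice. In LPAR2-/- mice it lay between 31.65 and 61.51 CPM in 6 mice and at 112.3 CPM in mouse 3. Its log2 fold change was -0.16 (SE 0.233, adjusted p = 0.736, edgeR), and -0.43 without mouse 3 (SE 0.145, adjusted p = 0.0864). Ugt8a (chr3:125865343-125938550) lay between 17.79 and 26.05 CPM in WT mice, between 10.57 and 21.19 CPM in 6 LPAR2-/- mice, 5 of which were below all WT mice, and at 45.74 CPM in mouse 3. Its log2 fold change was -0.09 (SE 0.279, adjusted p = 0.884, edgeR), and -0.46 without mouse 3 (SE 0.148, adjusted p = 0.0706).

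Enpp6 (chr8:46986925-47094895), a choline phosphodiesterase gene used to mark newly forming oligodendrocytes, had few counts. It lay between 1.03 and 2.20 CPM in WT mice, between 0.871 and 1.90 CPM in 6 LPAR2-/- mice and at 4.20 CPM in mouse 3. The log2 fold change was 0.14 with an interval of -0.56 to 0.85 (SE 0.332, adjusted p = 0.842, edgeR), and it turned to -0.32 without mouse 3 (adjusted p = 0.391). No direction can be given for this gene. Enpp6 lies on the same chromosome as Lpar2, 22.7 Mb away, where 122 of 775 genes tested were called (15.7%). The part of that position in its values was not tested.

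LPAR2-/- mouse 3 stood apart most for the members of late stages. Its level relative to the median of the other 6 LPAR2-/- mice was 3.81 times for Enpp6, 3.05 times for Ugt8a and 2.37 times for Bcas1. It was 1.71 times for Sox10, 1.56 times for Olig1, 1.45 times for Nkx2-2 and 1.31 times for Olig2. For Gpr17 it was 1.19 times, and for the OPC genes Pdgfra and Cspg4 1.00 and 0.933 times. The mouse was above all 13 others for 6 members (Olig1, Olig2, Sox10, Bcas1, Enpp6 and Ugt8a), whereas for Gpr17 it was above the 6 other LPAR2-/- mice and WT mouse 1 alone. It also had the highest thalamus sum of all 14 mice (376.5 CPM, against at most 334.3 CPM in WT mice). Within its genotype it had the lowest fibroblast sum (150.2 CPM) and the highest microglia (531.5 CPM) and astrocyte sums (6426 CPM), while WT mice reached 585.6 and 6530 CPM. Their part in its levels was not tested. Without it, 7 of the 9 other members had a lower estimate in LPAR2-/- mice, with a median log2 fold change of -0.31, and 1 of them (Olig2) was called, in a fit that called 7.43% of all genes.

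**Figure D3:**
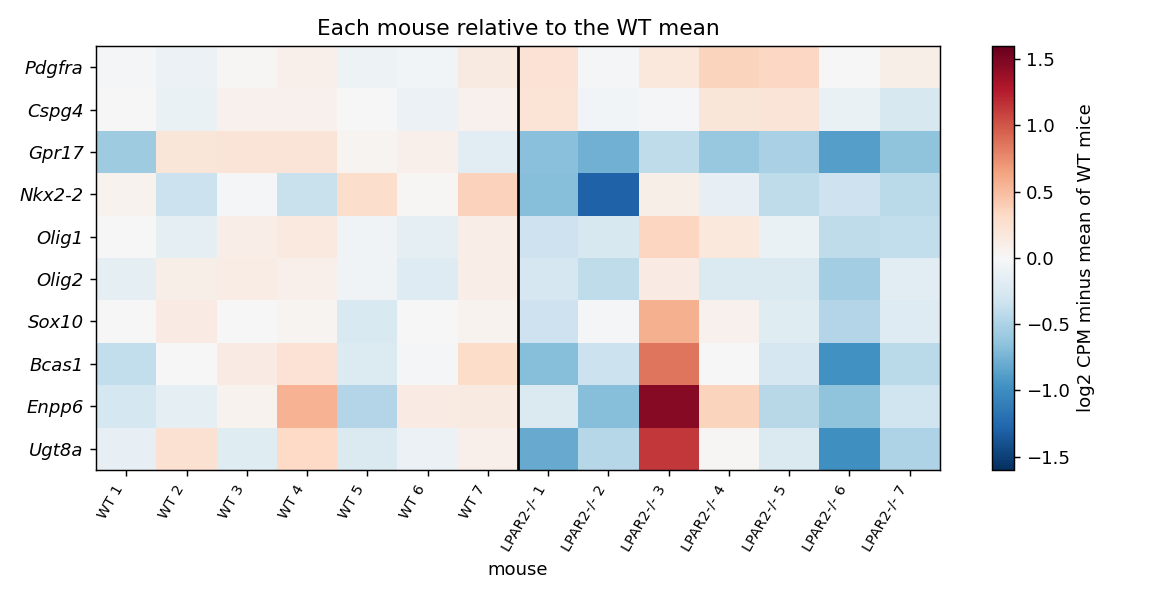
Level of each gene in each mouse as log2 CPM minus the mean of the WT mice (color scale, red above and blue below), with genes in rows and mice in columns. The Gpr17 row is blue in all LPAR2-/- mice, in WT mouse 1 and faintly in WT mouse 7, whereas the lower rows are red in LPAR2-/- mouse 3, which for Enpp6 reached 3.81 times the median of the other LPAR2-/- mice.

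Whether members varied with the mature oligodendrocyte level from mouse to mouse was examined within each genotype, against the mean log2 CPM of 23 mature genes without Ugt8a. This measure was chosen after the values had been seen, and p-values come from exact permutation tests over 5040 arrangements of 7 mice, adjusted over 20 correlations. In LPAR2-/- mice 7 members passed by Pearson's r, and 4 of them (Ugt8a, Bcas1, Olig1 and Sox10) also by Spearman's rho. The share of all genes tested that would pass was not computed in either genotype, so nothing is read from these counts. Ugt8a had r = 0.99 (Spearman's rho 1, adjusted exact p = 0.00198 for r and 0.00397 for rho), Bcas1 r = 0.986 (rho 1, with the same p-values) and Olig1 r = 0.968 (rho 0.964, adjusted exact p = 0.00397 and 0.0139). These held without mouse 3, with r = 0.966, 0.948 and 0.959 over 6 mice. For Enpp6 r was 0.94 (rho 0.571, adjusted exact p = 0.0397 and 0.333), but it was 0.141 without the 2 mice farthest from the median (mice 3 and 4), so that the relation rests on those mice. Sox10 had r = 0.962 (rho 0.964, adjusted exact p = 0.00893 and 0.0139), and r = 0.863 over the 6 mice without mouse 3 (exact p = 0.0264). Olig2 had r = 0.865 (rho 0.714, adjusted exact p = 0.0451 and 0.196) and Gpr17 r = 0.834 (rho 0.857, adjusted exact p = 0.0451 and 0.0952), although over the 6 mice without mouse 3 r was 0.594 for Olig2 and 0.695 for Gpr17, with exact p = 0.237 and 0.129. Pdgfra (r = 0.386, rho 0.464), Cspg4 (r = 0.164, rho 0.25) and Nkx2-2 (r = 0.587, rho 0.536) did not pass, with adjusted exact p for r of 0.5, 0.763 and 0.269.

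In WT mice 1 member passed, Sox10, with r = 0.862 (rho 0.786, adjusted exact p = 0.0451 for r and 0.137 for rho). Without WT mice 5 and 7, the farthest from the median, r was 0.682, and WT mouse 5 had both the lowest Sox10 level (16.52 CPM) and the lowest mature sum (1758 CPM). For Gpr17 r was 0.0133 in WT mice (exact p = 0.973). The difference between the genotypes in these correlations was not tested. With the mature level as a covariate across all 14 mice, 3 of the 9 members other than Gpr17 were called, in a fit that called 8.84% of all genes. The log2 fold change was -0.25 for Olig2 (adjusted p = 0.021, edgeR), -0.27 for Bcas1 (adjusted p = 0.0359) and -0.27 for Ugt8a (adjusted p = 0.0392). Gpr17 had -0.67 in this fit. These 3 calls were not made with the fibroblast or pericyte level as covariate, in fits that called 2.21% and 2.62% of all genes. With the fibroblast level the log2 fold change was -0.19 for Olig2 (adjusted p = 0.375, edgeR), -0.01 for Bcas1 (adjusted p = 0.987) and 0.09 for Ugt8a (adjusted p = 0.91), and with the pericyte level -0.21, -0.06 and 0.05 (adjusted p = 0.288, 0.927 and 0.951).

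**Figure D4:**
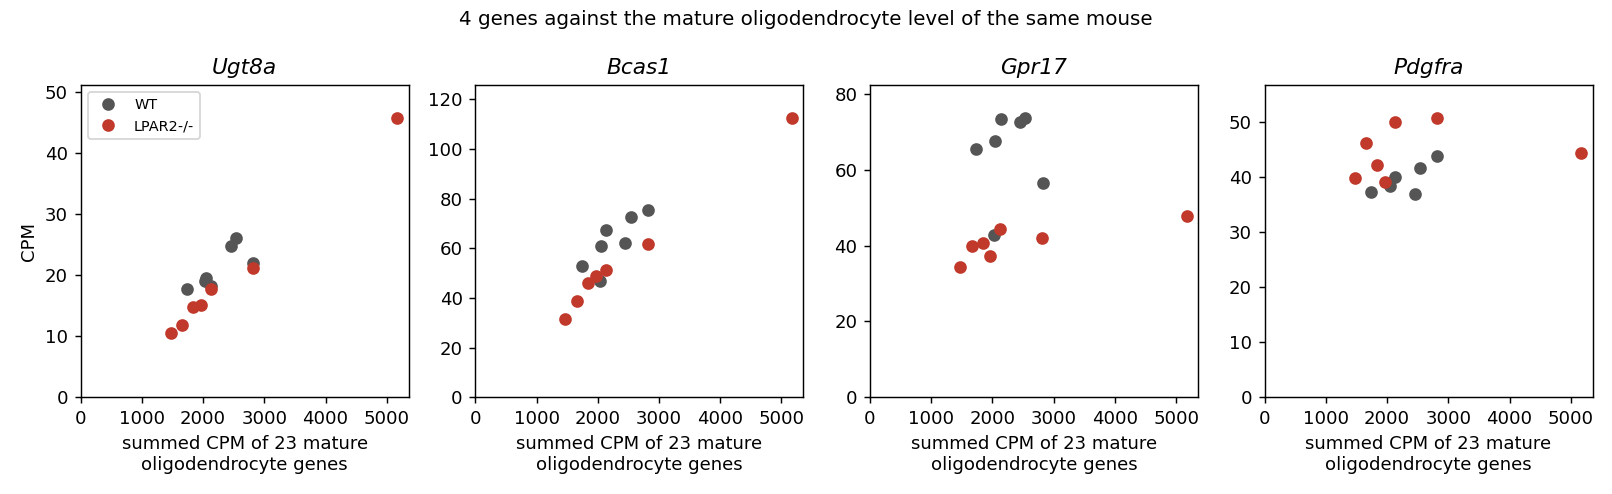
Level of Ugt8a, Bcas1, Gpr17 and Pdgfra in CPM (vertical axes, from 0) against the summed CPM of 23 mature oligodendrocyte genes in the same mouse (horizontal axes), for 7 WT (gray) and 7 LPAR2-/- mice (red). Ugt8a and Bcas1 rise with the sum in LPAR2-/- mice (r = 0.99 and 0.986 on the log2 scale), and Gpr17 lies lower in LPAR2-/- mice at like sums, except against WT mouse 1 (42.96 CPM).

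Correlations of Gpr17 with the other members were computed in the same way within each genotype, 18 in all. None passed at an adjusted p of 0.05. By Pearson's r 5 had an unadjusted exact p under 0.05, all in LPAR2-/- mice. The strongest was Olig2 with r = 0.937 (rho 0.857, exact p = 0.00437, adjusted 0.0786 for r and 0.107 for rho), which was 0.757 without mice 3 and 6. Bcas1 (r = 0.847), Ugt8a (0.844), Olig1 (0.778) and Enpp6 (0.775) followed, and without the same 2 mice r was between 0.354 and 0.498 for these 4. Without them r rose for Pdgfra from 0.643 to 0.861 and for Nkx2-2 from 0.553 to 0.827 (exact p with all 7 mice 0.122 and 0.194), and fell for Sox10 from 0.739 to -0.153. In WT mice Nkx2-2 ran against Gpr17, with rho -0.857 (exact p = 0.0238, adjusted 0.107) but r = -0.477 (exact p = 0.27, adjusted 0.476), which was -0.833 without WT mice 1 and 7. Without the same 2 WT mice r rose for Bcas1 from 0.576 to 0.884, for Olig2 from 0.473 to 0.816 and for Sox10 from 0.0529 to 0.773, so that in both genotypes these values rest on few mice. The difference between the genotypes in these correlations was not tested either.

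Over all genes, the 5 whose levels followed Gpr17 most closely were not members. After the mean of each genotype had been removed, Pearson's r over 14 mice was 0.937 for Thbs4, an extracellular matrix glycoprotein gene, 0.900 for Gfod1, 0.899 for each of the astrocyte glutamate transporter genes Slc1a2 and Slc1a3, and 0.898 for the RNA editing enzyme gene Adar. Without WT mouse 1, the lowest WT mouse for Gpr17 and for the astrocyte sum, r was 0.893 for Thbs4 and between 0.753 and 0.837 for the other 4. Thbs4 was lower in LPAR2-/- mice, at 3.61 against 8.94 CPM (log2 fold change -1.29, adjusted p = 0.0247, edgeR), while the other 4 did not pass. The first member in this order was Olig2, in place 730 of 14896 genes (r = 0.603), followed by Bcas1 in place 899 (r = 0.572). Pdgfra was in place 4482 (r = 0.209) and Nkx2-2 in place 7331 (r = 0.0018).

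Lists of further genes extend the comparison by stage. None of 24 further OPC genes passed, and their median log2 fold change was -0.01. Of them 4 had an unadjusted p under 0.05 (edgeR; 22.4% of all genes did), and DESeq2 called 1, Sox11 (8.6% of all genes). The 3 with the largest estimates were the factor gene Sox11 (-0.45, adjusted p = 0.121, edgeR), the channel subunit gene Cacng4 (0.26, adjusted p = 0.211) and the factor gene Sox4 (-0.23, adjusted p = 0.134). Sox11 and Sox4 are also expressed by immature neurons of the dentate gyrus, and several genes of this list are shared with astrocytes. The summed level of the list was 1205 to 1331 CPM in LPAR2-/- and 1136 to 1365 CPM in WT mice, and these ranges overlapped almost fully. Its largest parts were Cspg5 (235.2 CPM on average in LPAR2-/- mice), C1ql2 (208), Ptprz1 (200) and Gpr37l1 (192.5). The sum therefore says little about the scarcer genes of the list and is not a measure of OPCs alone. Without LPAR2-/- mouse 6, LPAR2-/- mouse 7 or WT mouse 6 in turn, 1 gene was called (Cacng4, Sox11 and Megf11 respectively).

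Of 27 genes of committed precursors and newly formed oligodendrocytes, 26 could be tested and 1 passed, where 6.77% of all genes did. Tmem2, which encodes a cell surface hyaluronidase, rose from 19.3 ± 1.49 to 24.9 ± 2.59 CPM (SD, n = 7 each), a log2 fold change of 0.37 (SE 0.0684, adjusted p = 0.00449, edgeR), in the direction opposite to Gpr17. It passed without each of the 14 mice in turn. Zfp488, a factor of the lineage (-0.41, adjusted p = 0.102, edgeR), and Rnf122 (0.34, adjusted p = 0.125) did not pass and went in opposite directions. The median of the list was -0.06, with 9 estimates higher and 17 lower. A further gene was called without LPAR2-/- mouse 1 (Rnf122), LPAR2-/- mouse 3 (Nfasc, the neurofascin gene, -0.23, adjusted p = 0.0198) or WT mouse 1 (Zfp488, -0.47, adjusted p = 0.0374).

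Of 33 regulators of oligodendrocyte differentiation, 30 could be tested and 3 passed, all lower in LPAR2-/- mice, with a median of -0.02 for the list. Over all genes 3.46% were called lower. Id2 and Id4 encode inhibitors of basic helix-loop-helix factors that hold back differentiation. Id2 was 65.7 ± 5.55 CPM in LPAR2-/- and 77.7 ± 5.15 CPM in WT mice (SD, n = 7 each), a log2 fold change of -0.24 (SE 0.0558, adjusted p = 0.0176, edgeR), and passed without each of the 14 mice in turn. Id4 was 38.9 ± 2.96 against 50.5 ± 9.10 CPM (-0.38, adjusted p = 0.0349, edgeR) but passed in only 4 of these 14 fits. Smad7, an inhibitor of BMP and TGF-β signaling, had -0.33 (adjusted p = 0.0303, edgeR) and passed in 8 of 14. Without LPAR2-/- mouse 1, 2 or 7, or without WT mouse 6, 1 gene of the list was called, Id2 in each case. Other genes passed only in alternatives. The Notch effector gene Hes5 (0.42, adjusted p = 0.0622, edgeR) passed with DESeq2 (0.41, adjusted p = 0.0321) and without WT mouse 1 (0.47, adjusted p = 0.033), in the upward direction. The Notch ligand gene Jag1 passed without LPAR2-/- mouse 3 (0.31), Hes1 (-0.34) and Ptgdr (1.49) without WT mouse 4, and Myrf, a master factor of myelination, with the mature covariate (-0.27, adjusted p = 0.00905, edgeR). Id2, Id4 and Smad7 are not specific to the lineage, and astrocytes and neurons express them too.

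Of 25 mature oligodendrocyte genes, 24 could be tested and none passed. At an unadjusted p under 0.05 there was 1 (edgeR), Apod, and DESeq2 called none. Of the 24 estimates 17 were higher in LPAR2-/- mice (median log2 fold change 0.09), but without mouse 3 only 3 were higher and 21 lower (median -0.19). With the replicate block and all 14 mice, 10 were higher and 14 lower (median -0.04), so no direction can be given for this list. The largest estimates were for the lipid carrier gene Apod (0.70, adjusted p = 0.129, edgeR), Ppp1r14a (0.38, adjusted p = 0.353) and Aspa, the aspartoacylase gene (0.33, adjusted p = 0.485). Apod alone was called without WT mouse 4 (0.91, adjusted p = 0.0454, edgeR), in the same fit that called 7 of the 14 fibroblast and meningeal genes. Fibroblasts of the meninges also express Apod, and their part in its value was not tested.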

How the data were processed

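The authors sequenced 1 library per mouse (7 mice labelled LPAR2-/- and 7 WT mice), removed adapters with cutadapt 1.18, mapped to mm10 (GRCm38) with STAR, and used featureCounts 1.6.3 for reverse-strand reads on the exons of each gene. All values here start from these deposited counts, which are not normalized. A second deposited table holds the same counts rescaled with DESeq2 1.22.2 and was not used. Depth was 15434620 to 23258949 counts per mouse, and 0 counts leave room for up to 3, a floor covering counting error only. CPM and RPKM were computed from the counts with TMM library sizes, with a prior count of 2 for log2 values.

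Genes passing edgeR's filterByExpr were tested with its robust quasi-likelihood F test (edgeR 4.0.16, limma 3.58.1, R 4.3.3), genotype being the only term, with Benjamini-Hochberg adjustment over all genes and a threshold of 0.05. Its p-values set the difference between the genotypes against the spread between mice, which does not cover differences between the colonies. Alternatives were DESeq2 1.42.0, DESeq2 size factors, upper quartile scaling, no filter, at least 10 counts in every library, a prior count of 0.5, the mouse number as a block, each mouse left out, and covariates for 3 cell types. The procedure was tested on simulated data. Overlaps and positions came from the count table's own exons, and promoters from RefSeq (6 of 10 members were searched).

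The members and lists were chosen with earlier results of these data known. Genes named were the members, Lpar2, up to 8 genes of each stage list past the threshold or else the 3 with the largest estimate, the 5 genes most correlated with Gpr17, and markers beside a result they touch. Genes named because they were called in an alternative, or overlap a member, were added after their values were seen.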

Additional observations from a re-analysis of the deposited data

Results flagged for a closer look

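In 46 groups of 7 mice, Dixon's test set a single mouse apart from its group in 5 on the log2 scale of CPM and in 11 on the linear scale (the 5 included), where chance gives about 1 in 20 groups. On both scales WT mouse 5 was low for Sox10 (16.52 CPM), and LPAR2-/- mouse 3 was high for the summed genes of committed precursors and newly formed oligodendrocytes (1720 CPM). LPAR2-/- mouse 2 was high for the choroid plexus genes (286.1 CPM), WT mouse 1 for the microglia genes (585.6 CPM), and WT mouse 2 was low for the thalamus genes (253.5 CPM). On the linear scale alone LPAR2-/- mouse 3 was high for Sox10 (29.15 CPM), Bcas1 (112.3 CPM), Enpp6 (4.20 CPM), Ugt8a (45.74 CPM) and the mature oligodendrocyte genes (5216 CPM), and WT mouse 4 for the fibroblast genes (468 CPM). The linear scale was added after the values had been seen. What sets these mice apart was not tested.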

How the results depend on the processing

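Gpr17 kept its direction under all 23 alternatives, with a log2 fold change between -0.74 and -0.62 (the same limits held for leaving out each mouse). The count of members called includes Gpr17 in every fit, which the choice of genes used. That count was 1 in all alternatives but 2. It was 2 without LPAR2-/- mouse 3 (Gpr17 and Olig2). With the mature oligodendrocyte level as a covariate it was 4 (Gpr17, Olig2, Bcas1 and Ugt8a). When each mouse was left out it ranged from 1 to 2. Estimates near 0 changed sign. Leaving out each mouse, Enpp6 ranged from -0.318 (without LPAR2-/- mouse 3) to 0.265, Sox10 from -0.182 (without LPAR2-/- mouse 3) to 0.0127 (without LPAR2-/- mouse 6) and Ugt8a from -0.463 to 0.0101 (without the same mice). Enpp6 was -0.0856 with the mature covariate. With the fibroblast covariate Cspg4 was -0.0440, Sox10 0.0774 and Ugt8a 0.0909, and with the pericyte covariate -0.0404, 0.0424 and 0.0466. None of these passed the threshold. Of the lists, leaving out each mouse gave 0 to 1 calls for OPC genes, 1 to 2 for committed precursor and newly formed genes, 1 to 4 for regulators and 0 to 1 for mature genes. DESeq2 called 1 OPC gene, and the mature covariate gave 2 committed precursor genes and 1 mature gene (Ugt8a). Without WT mouse 7, 1 correlation with Gpr17 passed in LPAR2-/- and 1 in WT mice (otherwise 0). The causes were not tested.

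With mouse number entered as a replicate block, Gpr17 was -0.65, Enpp6 was -0.0155 (0.14 without it) and no call among the members changed. After the mean of each genotype was removed, correlations between mice of the same number ran from -0.33 to 0.31 (3 of 7 above 0.1). Mice of different numbers were not compared, so whether the numbers pair mice was not tested. Libraries of a genotype were not copies (over 42 pairs, chi-square divided by its degrees of freedom was at least 3.41). Depth limits Enpp6 and Nkx2-2 most.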
